A study of Mus musculus with 4 samples.

Results

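The core circadian clock genes of the newborn mouse lung were followed here in RykSL/SL and wild-type animals. They are the 10 genes Arntl, Clock, Npas2, Per1, Per2, Per3, Cry1, Cry2, Nr1d1 and Nr1d2, found by symbol in a deposited table of 48709 genes, with 1 row for each symbol. RNA came from the left lung lobe of C57BL/6 mice at postnatal day 1, from 2 animals homozygous for the SL allele of Ryk (RykSL/SL) and from 2 wild-type animals, with no treatment in either group. Ryk encodes a receptor for WNT ligands, and the comparison asks which transcripts depend on its genotype. Every library comes from its own mouse, so the spread is between animals. The labels give neither the hour at which the lungs were taken nor the litter or the sex, and the effect of the SL allele on the RNA is not described in them.

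The clock is a feedback loop of transcription that nearly every cell of the body runs. BMAL1, the product of Arntl, pairs with CLOCK or its relative NPAS2, binds E-box sequences and switches on the Per, Cry and Nr1d genes. The PER and CRY proteins return to the nucleus and block BMAL1 and CLOCK, while REV-ERBα and REV-ERBβ, made from Nr1d1 and Nr1d2, repress Arntl, Npas2 and Cry1 through sites called ROREs. In most adult mouse tissues Arntl and Npas2 therefore peak when Nr1d1 is low. Per1 is also a direct target of the glucocorticoid receptor and of cAMP signalling, and in the adult mouse lung the clock is strong in the airway epithelium.

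Normalized counts summed to 19516482 and 19987634 in RykSL/SL lungs 1 and 2, and to 18743098 and 18658239 in wild-type lungs 1 and 2. Ryk itself stood at 2757 and 2203 normalized counts in the RykSL/SL lungs and at 2528 and 2525 in the wild-type lungs. Its log2 fold change was -0.04 (SE 0.16, limma, adjusted p = 0.926) and its groups overlapped. RykSL/SL lung 1 had 24836 normalized counts of Xist, against 9 in RykSL/SL lung 2 and 7 and 23 in the wild-type lungs, and only 56 of the Y-linked Ddx3y, against 3769 in RykSL/SL lung 2 and 2328 and 2197 in wild type. Kdm5d, also Y-linked, had 17 and 977 in RykSL/SL lungs and 829 and 858 in wild type. RykSL/SL lung 1 thus had the pattern of a female, and RykSL/SL lung 2 and both wild-type lungs had that of males. Sex is therefore not balanced between the genotypes, and its part in the differences was not tested. The normalized counts of every clock gene are given for both RykSL/SL lungs. Many other genes and some ratios are given only as a mean log2 difference, or are named without values. For those the text does not show how far the RykSL/SL lungs differed. The log2 difference between the RykSL/SL lungs had an SD over genes of 0.60, against 0.314 between the wild-type lungs. Lung markers were abundant in all 4 lungs, with Sftpc, the surfactant protein C gene and a marker picked with its values in view, at 135559 to 179120 in RykSL/SL lungs and 200581 to 220945 in wild-type lungs.

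Of the 10 clock genes, 3 rose in the RykSL/SL lungs, none fell and 7 did not pass the test. The genes that rose were Per1 (3.85-fold), Arntl (2.12-fold) and Cry1 (2.1-fold), which belong to 3 different arms of the loop. The test was limma on log2(value + 1), run over 18436 genes whose mean reached 10, with Benjamini-Hochberg adjustment and a call at an adjusted p under 0.05; all 10 clock genes were above that mean. Over all genes tested it called 2.39% in either direction, 1.47% higher and 0.917% lower. In 7 clock genes both RykSL/SL lungs lay above both wild-type lungs, and in 1, Nr1d1, both lay below. Over all genes tested, 25.7% lay above in this way and 26.9% below. The median log2 fold change was 0.84 over the clock genes and -0.02 over all genes tested. At an unadjusted p under 0.05 there were 8 clock genes, against 20.1% of all genes. No clock gene and no other gene passed limma's adjusted threshold (0.0% called) when RykSL/SL lung 2, wild-type lung 1 or wild-type lung 2 was left out (5249, 917 and 1133 genes at an unadjusted p under 0.05). Without RykSL/SL lung 1, 5 clock genes were higher, beside 6.5% of all genes. Each fit without a lung leaves a genotype with 1 lung, so it does not measure the spread between animals of that genotype. All 3 calls were also lost with no filter on low values (adjusted p = 0.222 to 0.24 in limma, 0.0% of all genes called) and without the mean-variance trend (adjusted p = 0.0617 to 0.0865, 0.391% called). The log2 fold changes of these genes were 0.96 or more under all 12 alternatives run, including those that ended the calls.

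**Figure D1:**
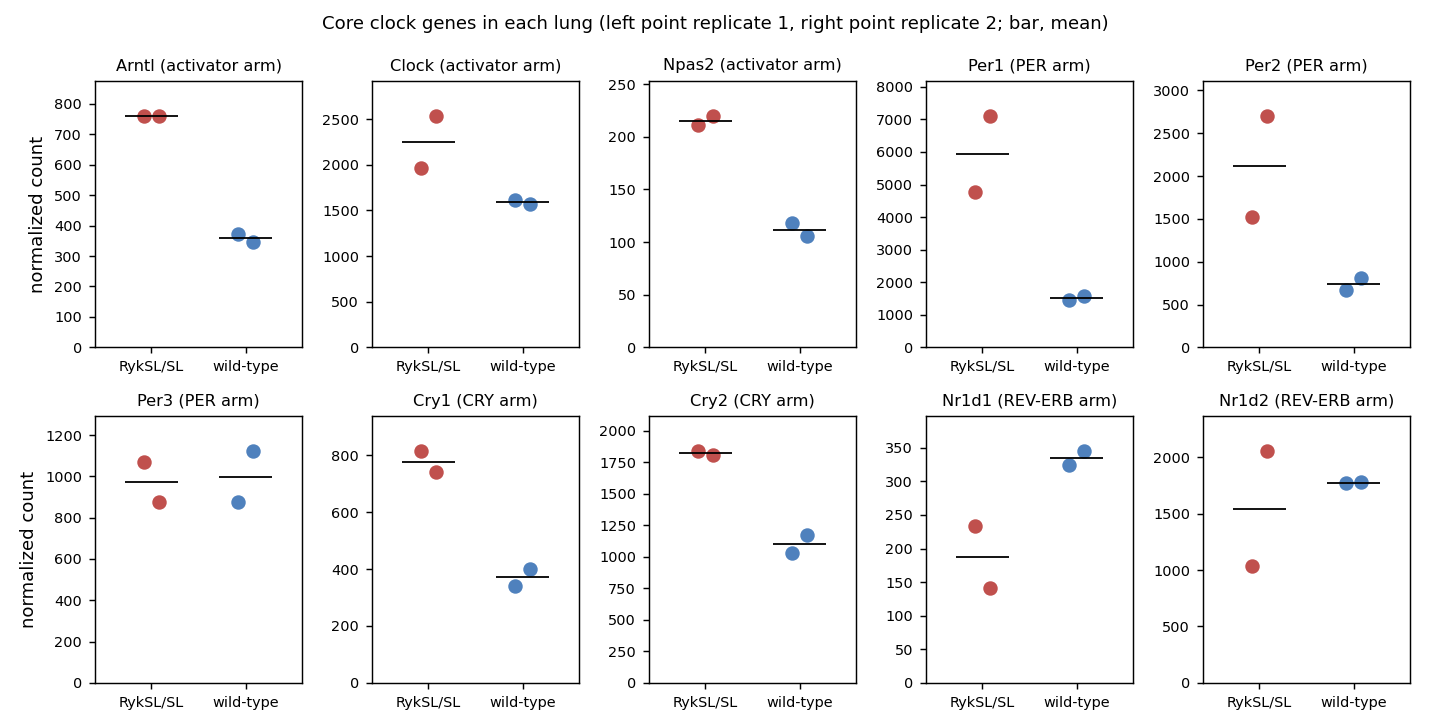
Normalized count (y axis, from 0, own scale for each gene) of the 10 core clock genes in the 2 RykSL/SL lungs and the 2 wild-type lungs, with replicate 1 on the left and replicate 2 on the right of each group and a bar at the mean. The RykSL/SL points lie above the wild-type points in 7 genes and below them in Nr1d1, and the groups overlap in Per3 and Nr1d2.

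Short stretches of promoter are shown for the members in which clock motifs were found by their letters, with the motif in capitals. Windows from 250 bases before to 50 bases after each transcription start came from RefSeq (GRCm38.p6), which held 13 windows for 9 of the 10 genes, with none for Per2. The letters searched on both strands were CACGTG for the E-box, TAGGTCA or TGGGTCA for the core of the RORE, TTATGTAA or TTACGTAA for the D-box, TGACGTCA for the cAMP response element and AGAACA for the half-site of the glucocorticoid response element. None of these motifs contains another. The Per1 match begins 166 bases before the start of 1 of its promoters and the Cry1 match 60 bases before its start. The Arntl match begins at base 31 of the transcript from the downstream of its starts. The Per3 matches begin 205 and 158 bases before the start. All windows read 5′ to 3′ on the strand of the gene.
Per1 (chr11:69098746-69098825, plus strand, E-box): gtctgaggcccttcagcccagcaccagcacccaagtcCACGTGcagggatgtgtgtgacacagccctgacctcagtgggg
Cry1 (chr10:85185072-85185151, minus strand, E-box): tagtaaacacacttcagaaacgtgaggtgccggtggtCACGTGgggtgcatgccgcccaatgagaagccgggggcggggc
Arntl (chr7:113207520-113207549, plus strand, RORE core): acatttagggaaggcagaaagTAGGTCAgg
Per3 (chr4:151044804-151044882, minus strand, D-boxes): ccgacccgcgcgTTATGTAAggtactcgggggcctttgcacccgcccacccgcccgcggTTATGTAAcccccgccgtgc
Among all 32851 windows in the table, 7.15% held the E-box, 6.45% the RORE core and 1.06% the D-box letters. The letters of the cAMP response element (1.79% of windows) and of the glucocorticoid half-site (19.0%) were found in no window of a clock gene. A match describes the letters of these windows and is not evidence of binding. With so few and short windows, and none for Per2, the absence of a match says nothing about binding either.

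All 3 genes of the activator arm lay above the wild type in both RykSL/SL lungs, and Arntl passed the test. Arntl (ENSMUSG00000055116, chromosome 7, positions 113207465 to 113314126, GRCm38), the gene of BMAL1, had 759 and 760 normalized counts in RykSL/SL lungs and 371 and 346 in wild-type lungs. The RykSL/SL values were nearly equal to each other and each lay 1.08 log2 units above the wild-type mean. The log2 fold change was 1.08 (SE 0.143, limma, adjusted p = 0.0266). Exons of Gm45355 on the opposite strand overlap 33 bases of Arntl exons, and that gene had 2 and 4 normalized counts in RykSL/SL lungs and 0 and 0 in wild-type lungs. Npas2 (chromosome 1, positions 39193731 to 39363236), which can replace CLOCK as the partner of BMAL1, had 211 and 220 in RykSL/SL lungs and 118 and 106 in wild-type lungs. The groups did not overlap, and the log2 fold change of 0.94 (SE 0.185) did not pass (adjusted p = 0.0653). Clock (chromosome 5, positions 76209868 to 76304792) had 1968 and 2537 in RykSL/SL lungs and 1611 and 1571 in wild-type lungs. It had the smallest difference of the arm, 0.49 (95% interval 0.08 to 0.9, adjusted p = 0.191), and RykSL/SL lung 1 lay closer to the wild type than lung 2.

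Among the PER genes, which encode the inhibitors that accumulate and are degraded in each cycle, Per1 rose, while Per2 and Per3 did not pass. Per1 (ENSMUSG00000020893, chromosome 11, positions 69095217 to 69109960) had 4781 and 7111 normalized counts in RykSL/SL lungs and 1462 and 1570 in wild-type lungs. The groups were far apart, and RykSL/SL lung 2 was the higher of the mutant lungs. The log2 fold change was 1.94 (SE 0.212, limma, adjusted p = 0.017), the largest of the 10 genes. Per2 (chromosome 1, positions 91415982 to 91459324) had 1526 and 2703 in RykSL/SL lungs and 675 and 811 in wild-type lungs. Lung 2 again stood above lung 1, by 0.82 on the log2 scale, and the log2 fold change of 1.46 (SE 0.28) did not pass (adjusted p = 0.0629). Per3 (chromosome 4, positions 151003652 to 151044665), whose loss leaves the mouse clock running, had 1070 and 877 in RykSL/SL lungs and 874 and 1122 in wild-type lungs. Its groups overlapped, with a log2 fold change of -0.03 and a 95% interval of -0.49 to 0.42.

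Both cryptochrome genes, which encode the main repressors of BMAL1 and CLOCK, were higher in both RykSL/SL lungs, and Cry1 passed the test. Cry1 (ENSMUSG00000020038, chromosome 10, positions 85131702 to 85185054) had 814 and 741 normalized counts in RykSL/SL lungs and 342 and 399 in wild-type lungs. Its log2 fold change was 1.07 (SE 0.158, limma, adjusted p = 0.0333), and the lungs of a genotype differed by no more than 0.22. Cry2 (chromosome 2, positions 92403646 to 92434043) had 1838 and 1809 in RykSL/SL lungs and 1027 and 1176 in wild-type lungs. The log2 fold change of Cry2 was 0.73 (SE 0.141), with RykSL/SL lungs 0.74 and 0.72 above the wild-type mean, and it did not pass (adjusted p = 0.0629). Exons of the antisense transcript D930015M05Rik overlap 295 bases of Cry2 exons. That transcript had 40 and 49 normalized counts in RykSL/SL lungs and 19 and 24 in wild-type lungs, a small number beside those of Cry2.

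The REV-ERB genes, the nuclear receptors that repress Arntl, did not pass the test: Nr1d1 lay below the wild type in both RykSL/SL lungs, and the RykSL/SL lungs lay on either side of it for Nr1d2. Nr1d1 (ENSMUSG00000020889, chromosome 11, positions 98767932 to 98775333) had 234 and 142 normalized counts in RykSL/SL lungs and 325 and 345 in wild-type lungs. It was the member with both RykSL/SL lungs below both wild-type lungs. Lung 2 lay 1.23 and lung 1 lay 0.52 below the wild-type mean on the log2 scale. The log2 fold change of -0.87 (95% interval -1.51 to -0.23) did not pass (limma, adjusted p = 0.154). Without RykSL/SL lung 1 the log2 fold change was -1.23, from the 1 RykSL/SL lung that remained. Nr1d2 (chromosome 14, positions 18204054 to 18239127) had 1035 and 2053 in RykSL/SL lungs and 1768 and 1778 in wild-type lungs. RykSL/SL lung 1 was lower than both wild-type lungs and lung 2 was higher than both, and the RykSL/SL lungs differed by 0.99 on the log2 scale where the wild-type lungs differed by 0.01. The mean difference of -0.28 had a 95% interval of -1.04 to 0.48. Exons of Thra, a thyroid hormone receptor gene on the opposite strand, overlap 263 bases of Nr1d1 exons, or 8.5% of their length. Thra had 1969 and 1508 normalized counts in RykSL/SL lungs and 2125 and 2226 in wild-type lungs (log2 fold change -0.34, adjusted p = 0.333). The sources used here do not give the strand setting of the counting, so the gene of origin of reads in that overlap is uncertain, and its part in the Nr1d1 values was not tested.

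**Figure D2:**
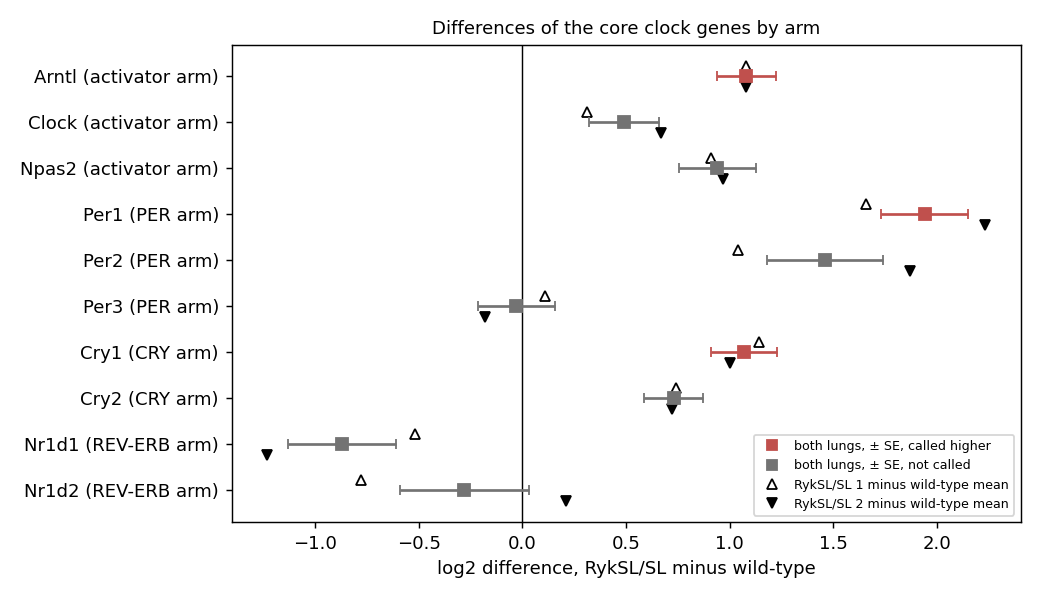
Log2 difference of normalized counts, RykSL/SL minus wild-type (x axis), for the 10 clock genes ordered by arm. Squares with bars give the fitted difference ± SE over both lungs of each genotype, and triangles give each RykSL/SL lung minus the wild-type mean: Arntl lies at 1.08 in both lungs, Per1 at 1.66 and 2.23, and Nr1d2 at -0.78 and 0.21.

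Ratios between clock genes within a lung do not change when all values of a library are multiplied by 1 factor, and the lengths of the genes drop out of their differences between genotypes. The log2 ratio of Arntl to Nr1d1, genes that peak at opposite times in adult tissues, was 1.69 and 2.41 in RykSL/SL lungs and 0.19 and 0.0 in wild-type lungs. The mean differed by 1.96, and both RykSL/SL lungs lay above both wild-type lungs. The log2 ratio of Per1 to Nr1d1, which are both driven through E-boxes, was 4.35 and 5.64 in RykSL/SL lungs and 2.17 and 2.18 in wild-type lungs. The ratio of Cry1 to Nr1d1 differed in the same direction, with 1.79 and 2.38 in RykSL/SL lungs and 0.07 and 0.21 in wild-type lungs. The ratio of Per2 to Nr1d1 was 2.7 and 4.24 in RykSL/SL lungs and 1.05 and 1.23 in wild-type lungs. These ratios share the Nr1d1 values, and neither Nr1d1 nor Per2 passed the test. Arntl, Per1, Cry1 and Per2 lay above the wild type in both RykSL/SL lungs and Nr1d1 below it. The separation of these ratios therefore follows from the single-gene values and adds no further result.

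Ratios between genes of the same arm differed as well. The log2 ratio of Per1 to Per3 was 2.16 and 3.02 in RykSL/SL lungs and 0.74 and 0.48 in wild-type lungs, a mean difference of 1.98. The ratio of Per2 to Per3 differed by 1.49 in the same direction. Smaller differences were seen for Arntl to Clock (0.59), Npas2 to Clock (0.45) and Cry1 to Cry2 (0.34), and in all of these the groups did not overlap. For Nr1d2 to Nr1d1 the RykSL/SL values of 2.14 and 3.84 enclosed the wild-type values of 2.44 and 2.36. Among single genes, 25.7% of all tested had both RykSL/SL lungs above both wild-type lungs and 26.9% had both below. No such share was computed for ratios. All the ratios given here are descriptions without a test, and their mean differences restate the single-gene log2 fold changes.

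**Figure D3:**
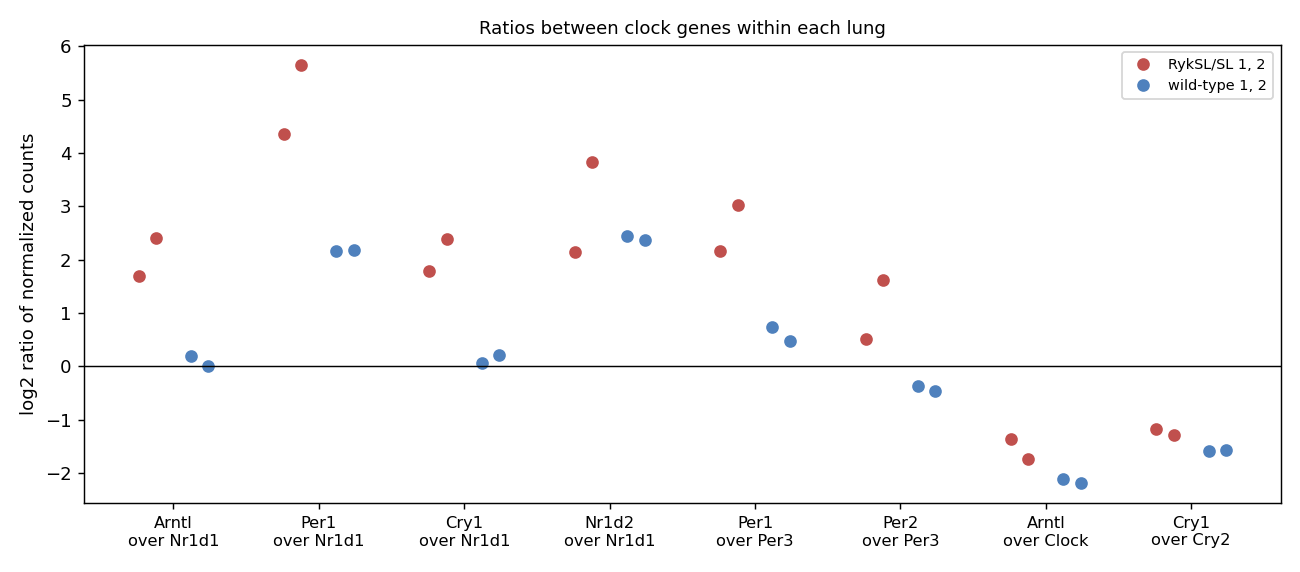
Log2 ratio of normalized counts between pairs of clock genes (y axis) in each RykSL/SL lung and each wild-type lung, where points are single lungs. Ratios to Nr1d1 and to Per3 were higher in both RykSL/SL lungs, except Nr1d2 to Nr1d1, in which the RykSL/SL lungs (2.14 and 3.84) lie on either side of the wild type.

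Levels were compared between genes as normalized counts per kilobase of merged exons. In RykSL/SL lungs Per1 stood highest, at 849.0 and 1262.8 per kilobase, where wild-type lungs had 259.6 and 278.8. Nr1d2, the highest of the 10 in wild-type lungs at 326.9 and 328.7, had 191.3 and 379.6 in RykSL/SL lungs. Npas2 was the lowest in both genotypes, with 44.0 and 45.9 in RykSL/SL lungs and 24.6 and 22.1 in wild-type lungs. In wild-type lungs the order from the top was Nr1d2, Per1, Cry2, Per2, Clock, Cry1, Nr1d1, Per3, Arntl and Npas2. The neighbours Per2 and Clock, Clock and Cry1, Cry1 and Nr1d1, and Nr1d1 and Per3 overlapped between the wild-type lungs. Arntl and Nr1d1 exchanged order between genotypes: per kilobase Arntl had 100.9 and 101.0 in RykSL/SL lungs and 49.3 and 46.0 in wild-type lungs, while Nr1d1 had 76.0 and 46.1 in RykSL/SL lungs and 105.6 and 112.1 in wild-type lungs. The order depends in part on the lengths used. With the longest transcript in place of merged exons, the wild-type mean of Per3 was 166.4 per kilobase in place of 103.9, which put it above Clock (163.3), Per2 (127.4), Nr1d1 (123.1) and Cry1 (122.4); that of Arntl was 89.7 in place of 47.7, with Arntl still above Npas2 and below the others.

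Among 14690 other genes with a mean of at least 50, those whose centred log2 values over the 4 lungs lay closest to Arntl were Tlr8, Lims2, Pip5k1b and Rab3a, at distances of 0.0899 to 0.104 log2 units. Of these, Lims2 had 727 and 686 normalized counts in RykSL/SL lungs and 346 and 341 in wild-type lungs. The closest to Nr1d1 were 2310033P09Rik, Gbp9, Rab19 and Rem1, at 0.0382 to 0.0643. With 4 lungs and so many genes, close profiles are common, and the names describe likeness only.

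Of 26 regulators that act on the clock loop (kinases, ubiquitin ligases, co-repressors and others), 25 were tested and none passed in limma, with 6 at an unadjusted p under 0.05, beside 20.1% of all genes. Their median log2 fold change was 0.18 beside -0.02 over all genes. Usp2, a ubiquitin protease gene driven by the clock, had the smallest p, with 178 and 259 normalized counts in RykSL/SL lungs and 80 and 101 in wild-type lungs (log2 fold change 1.25, adjusted p = 0.0753). Rora, which encodes a nuclear receptor that activates transcription at ROREs, had 1083 and 2054 in RykSL/SL lungs and 729 and 754 in wild-type lungs (1.01, adjusted p = 0.149). The kinase genes Csnk1d and Csnk1e, whose products mark PER proteins for degradation, had log2 fold changes of 0.18 and 0.42 and did not pass (adjusted p = 0.559 and 0.169), and they were chosen with their values in view. Without RykSL/SL lung 1, 4 regulators passed, beside 6.5% of all genes called higher and 6.43% lower.

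Of 6 clock output factors, 1 rose and 5 did not pass, with a median of 0.69. Over all genes tested, 1.47% were called higher and the median was -0.02. Nfil3, a repressor at D-boxes whose own gene is under REV-ERB control, had 662 and 1523 normalized counts in RykSL/SL lungs and 193 and 176 in wild-type lungs (log2 fold change 2.44, adjusted p = 0.036). Dbp, an activator at D-boxes and a classical E-box target, was picked with its values in view and had 64 and 32 in RykSL/SL lungs and 120 and 155 in wild-type lungs (-1.57, adjusted p = 0.098). Its relatives Hlf and Tef, picked in the same way, lay on the other side of the wild type: Hlf had 216 and 286 in RykSL/SL lungs and 95 and 113 in wild-type lungs (1.25, adjusted p = 0.0519), and Tef had 4803 and 4625 in RykSL/SL lungs and 2216 and 2909 in wild-type lungs (0.89, adjusted p = 0.0647). Among 13 genes that are rhythmic in many adult tissues, 3 rose: Tsc22d3 (2.09), Klf9 (2.02) and Nampt (1.84). The median of that list was 0.56, and the share and median over all genes are those given above. Both lists were chosen with earlier results of these data known.

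Most genes of a list of glucocorticoid response genes also rose in the RykSL/SL lungs, and a minority of those of cAMP and other early signals did. Of 14 glucocorticoid response genes, 10 rose and none fell, with a median of 1.84. The 14 include Nr3c1, the gene of the receptor itself, picked with its values in view. Nr3c1 had 3571 and 3117 normalized counts in RykSL/SL lungs and 3964 and 4039 in wild-type lungs (-0.26) and was not called. Over all genes tested, 1.47% were called higher and the median was -0.02. The list was chosen with earlier results of these data known, so its count is a description. The summed normalized counts of the 14 genes were 62254 and 68198 in RykSL/SL lungs and 21045 and 20649 in wild-type lungs. The largest were Zbtb16 (4.63), Fkbp5 (2.92), Cdkn1a (2.72) and Ddit4 (2.67). Tsc22d3 and Klf9 are on this list as well as on the list of rhythmic genes. Of 14 cAMP, CREB and immediate early genes, 3 rose (Sik1, Fosl2 and Jun), none fell and 11 did not pass. The median of this list was 0.68, beside the same share and median over all genes. Egr1 (-0.16) and Crem (0.53), picked with their values in view, were among those whose groups overlapped. Their summed counts were 18441 in RykSL/SL lung 1 and 30285 in RykSL/SL lung 2, against 11329 and 11443 in wild-type lungs. Among the clock genes the order of the RykSL/SL lungs varied: lung 2 was the higher in Per1, Per2, Nr1d2, Clock, Npas2 and, by a single count, Arntl, and lung 1 in Cry1, Cry2, Per3 and Nr1d1. Many of these increases were known from earlier results of the same data, and their part in the clock gene values was not tested.

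**Figure D4:**
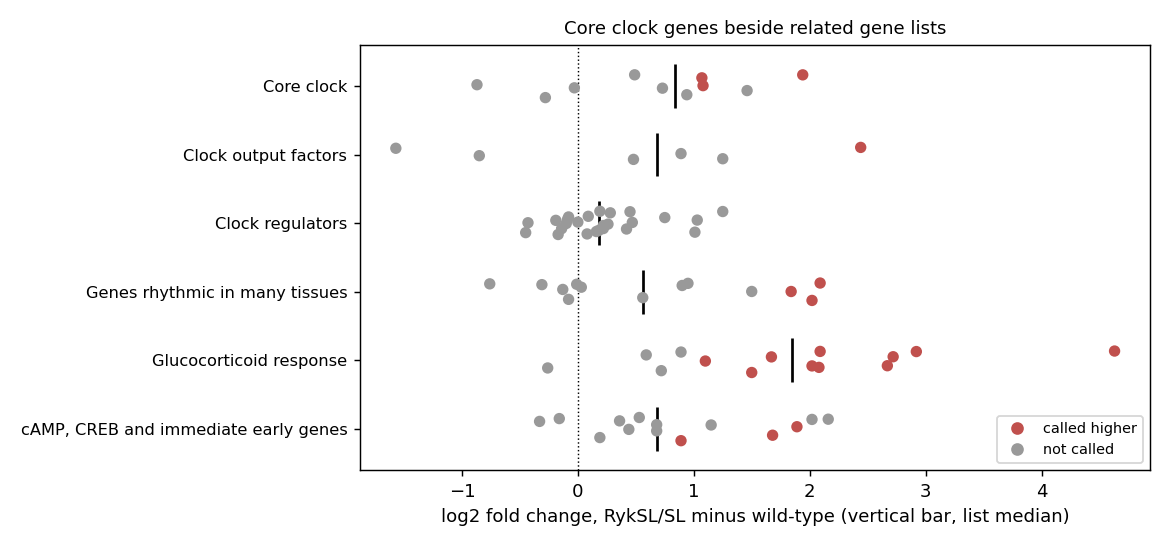
Log2 fold change, RykSL/SL minus wild-type (x axis), of each tested gene of the core clock and of 5 related lists, with a bar at each list's median and genes that passed the test coloured. The core clock median is 0.84, between those of the clock regulators (0.18) and of the glucocorticoid response genes (1.84).

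Markers of some cell types also differed between these whole-lobe samples. Over all genes tested, 1.47% were called higher and 0.917% lower. Cardiac muscle markers summed to 3795 to 4280 normalized counts in RykSL/SL lungs and 7539 to 7597 in wild-type lungs, with 2 of 7 tested genes lower (Myl7, -1.62, and Myl4, -1.28). For Myh7 the RykSL/SL lungs (757 and 285) lay on either side of the wild-type lungs (567 and 685). The other tested cardiac genes lay below the wild type in both RykSL/SL lungs. B cell markers summed to 159 to 204 in RykSL/SL lungs and 466 to 491 in wild-type lungs, with 1 of 4 lower (Ms4a1, -2.1). Macrophage markers summed to 2155 to 2323 in RykSL/SL lungs and 2849 to 3351 in wild-type lungs, with none of 5 called. Lung epithelium markers summed to 249276 to 295039 in RykSL/SL lungs and 337423 to 356837 in wild-type lungs, with none of 8 called. Sftpc made up most of the epithelial sum, and the list did not move as a whole. Sftpc, Sftpb, Ager and Scgb1a1 lay below the wild type in both RykSL/SL lungs. Nkx2-1 and Hopx lay above it in both, and the groups overlapped in Sftpa1 and Abca3. Fibroblast markers summed to 34966 to 38316 in RykSL/SL lungs and 49412 to 51358 in wild-type lungs, but the 1 of 5 that was called, Pdgfra, was higher (3260 and 5235 in RykSL/SL lungs and 1363 and 1682 in wild-type lungs, log2 fold change 1.45, adjusted p = 0.0487). Col1a1, Col1a2 and Col3a1 lay below the wild type in both RykSL/SL lungs, and for Dcn these lungs lay on either side of it. Endothelial markers summed to 26946 in RykSL/SL lung 1 and 13540 in RykSL/SL lung 2, on either side of the wild-type lungs (20006 to 21594). None of 5 was called. Pecam1, Cdh5 and Tek lay on either side in this way, while Kdr and Emcn lay below the wild type in both RykSL/SL lungs. The smooth muscle sum also fell on either side, at 9840 and 3776 in RykSL/SL lungs against 6698 to 7945 in wild-type lungs, again with none of 5 called. Liver markers were low, at 60 to 78 in RykSL/SL lungs and 21 to 22 in wild-type lungs, with none of 2 tested genes called. Markers of brown fat and thymus T cells summed to no more than 41 in any lung. None of the markers listed was at 0 in all 4 lungs. In bulk tissue, fewer cells of a type and less RNA per cell cannot be told apart, and the part of these shifts in the clock gene values was not tested.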

How the data were processed

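Poly(A) mRNA libraries were made with the TruSeq Stranded mRNA kit from 3 micrograms of total RNA, per the labels' protocols. Per the submitters' processing notes, the genome was mm10 (GRCm38) and the tools were STAR 2.4.0a, featureCounts 1.5.1 (Subread), DESeq2 1.14.1 and FastQC. The values the authors deposited are normalized counts rounded to whole numbers, treated here as a score: in RykSL/SL lung 2 no gene has a value of 3, 10 or 17, as after scaling and rounding, so no count model was used. The sources used here do not give the way the values were scaled. The depth limits only low values, and the clock genes stood at 106 to 7111.

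Groups came from sample titles and columns from sample descriptions. Log2(value + 1) was fitted with limma 3.58.1 in R 4.3.3 (a mean-variance trend, two-sided), for the 18436 genes whose mean over the libraries reached 10, with Benjamini-Hochberg adjustment and a threshold of 0.05; log2 fold changes on this scale understate changes of low genes. The fit was tested on simulated data with the same spread in both genotypes. That test did not cover the larger spread seen between the RykSL/SL lungs. Intervals are 95% intervals of that fit. Exon lengths, overlaps and shared sequences came from GENCODE M21 (GRCm38), in which 48349 of 48709 gene identifiers were found and 9 of the 10 clock genes had the deposited start and end. Of the 50-base sequences of the transcripts, 7.27% for Nr1d1, 5.13% for Nr1d2, 3.29% for Cry2 and 0.22% for Per3 also occur in other genes, and none for the other 6. Python 3.11.15, pandas 2.3.3, numpy 2.4.6 and matplotlib 3.10.9 were used besides. Promoter motifs were found by exact letters in RefSeq windows.

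The 10 clock genes and all lists were chosen with earlier results of these data known. Named were the 10 members, Ryk, Xist, Ddx3y and Kdm5d as a check of sex, genes with exons over those of a member, the 4 genes most like Arntl and like Nr1d1, and the called genes of each clock or response list, up to 4 by smallest p, or else the 2 with the smallest p; an item that these lists held is not reported here and is not in their counts, called cell type markers are named, and other names are said to have been chosen with their values in view.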

Additional observations from a re-analysis of the deposited data

How the results depend on the processing

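Per1, Arntl and Cry1 were called with a pseudocount of 0.5 or 8, a minimum mean of 50, equal totals per library, quantile normalization and the replicate block. Equal totals moved the median of all genes from -0.02 to -0.094 on the log2 scale. With no filter on low values 0 genes were called (4876 at an unadjusted p under 0.05), among the clock genes, regulators and output factors as well; 31939 genes were then tested. Without the mean-variance trend 46 genes were called higher and 26 lower, with 0 clock genes, 0 regulators and 0 output factors. Leaving out each lung in turn, which leaves a genotype with 1 lung assumed to vary like the others, gave 0 to 5 clock genes higher, 0 to 1 lower, 0 to 1199 genes higher and 0 to 1186 lower in all, 0 to 4 regulators and 0 to 3 output factors. The high ends came without RykSL/SL lung 1, where Per1, Per2, Arntl, Clock, Cry1 and Nr1d1 passed; 0 came without RykSL/SL lung 2 (5249 at an unadjusted p under 0.05), wild-type lung 1 (917) or wild-type lung 2 (1133). Quantile normalization gave 2 output factors. Of the single-gene values, those of Per3 (-0.21 to 0.15) and Nr1d2 (-0.78 to 0.21) changed sign when single lungs were left out: Per3 without RykSL/SL lung 2 (0.11) or wild-type lung 2 (0.15), and Nr1d2 without RykSL/SL lung 1 (0.21). The causes were not tested.

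With the replicate number as a block, 437 genes were called higher and 329 lower, among them 4 clock genes (Per2 in addition), 2 regulators and 3 output factors. The labels do not give the litter, so whether same-numbered lungs share more than a number is not known. The differences between replicates 1 and 2 in the 2 genotypes had a correlation of -0.0579 over 18436 genes. In the RykSL/SL lungs this difference is also one between a female and a male pattern, so the correlation cannot decide it.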
